A study of Mus musculus with 9 samples.

Results

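Keratins, claudins and desmosome proteins are the structural genes of epithelial cells, examined here in cultured murine astrocytes. The family was selected on its deposited log2 ratios and scores in these same tables, so its values below are a description. Within it, members were taken by symbol: every gene named Krt, Cldn, Dsc or Pkp with a number, every Dsg gene, and the desmosome genes Dsp and Jup, with keratin-associated proteins left out. This gave 55 genes of the 20076 with a ratio in either table, namely 27 keratins, 18 claudins and 10 desmosome genes. The tables named 38 of them and 17 were named through their gene identifier. The annotation lists 105 genes whose symbol meets the rule, and 50 of these matched no gene with a ratio, the endothelial claudin Cldn5 and the myelin claudin Cldn11 among them.

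Keratins build the intermediate filaments of epithelia and always pair a type I with a type II chain, as in Krt18 with Krt8 and Krt14 with Krt5. Desmosomes fasten these filaments to the cell surface through the cadherins of the Dsg and Dsc families, the armadillo proteins Jup and Pkp, and the plakin Dsp. Claudins are the membrane proteins of tight junctions and set how tightly neighbouring cells are sealed. Astrocytes mainly use other filament proteins, such as vimentin and GFAP.

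The cells were murine brain astrocytes of genotype Ink4a-/-, which lack a tumour suppressor locus that restrains the cell cycle, and this background was common to the controls. They carried an empty vector (pcDNA puro, control), a vector for the HA-tagged intracellular part of the Notch ligand Jagged1 (pcDNA HA-JICD1 puro, JICD1) or a vector for the intracellular part of the Notch1 receptor (pcDNA NICD puro, NICD1). Each of the 3 groups had 3 RNA-seq libraries (9 together). The labels do not say whether they came from separate cultures, or whether the transfected cells were pools or clones. For each construct the authors' deposited table gives 1 log2 ratio over control and 1 score between 0 and 1 per gene, with no value per library. No ratio below therefore has a replicate error or a test, the depth is unknown, and "higher" and "lower" give only the direction of a ratio. A gene with a score of 0.8 or more is called scored, which is not a level of significance. Both comparisons use the same control libraries, so their ratios are not independent of each other.

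In the authors' deposited tables Jag1 had a log2 ratio of -1.39 (score 0.759) with JICD1 and 1.36 with NICD1. The ratio goes against the label of the JICD1 group, although the construct encodes only a fragment, so the group is called the libraries labelled JICD1. Notch1 had 1.33 (score 0.735) with JICD1 and 1.77 (score 0.815) with NICD1 in the authors' deposited tables, so its ratio was above 0 in both groups. The astrocyte label could not be checked by level, since the tables hold ratios. Of 8 astrocyte markers 7 had a JICD1 ratio, with a range from -3.88 to 0.79 and Gfap at -1.36 in the authors' deposited table, and Aqp4 matched no gene with a ratio. In bulk RNA, fewer cells of a type and less RNA per cell cannot be told apart.

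Many of these genes lay at the limit of detection. In 694 genes the 2 deposited tables held the same negative ratio within 1e-06, which places both transfected groups at a common floor. The scores of those genes trace the lower edge of the plot of score against ratio. Where a gene lay on that edge and its log2 ratio was 1 or more in size, 1 of its groups was taken to be at the floor, and its ratio is not turned into a fold. By this inference 26 of the 55 members (47.3%) had a group at the floor, against 19.3% of all genes. The share was 16 of 27 among keratins, 9 of 18 among claudins and 1 of 10 among desmosome genes. These shares depend on the limit of 1. Dsc2 and Dsg3 with NICD1 (0.61 and 0.63) and Dsp with JICD1 (0.49) also lay on that edge, as did Krt26 with NICD1 (0.73).

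**Figure D1:**
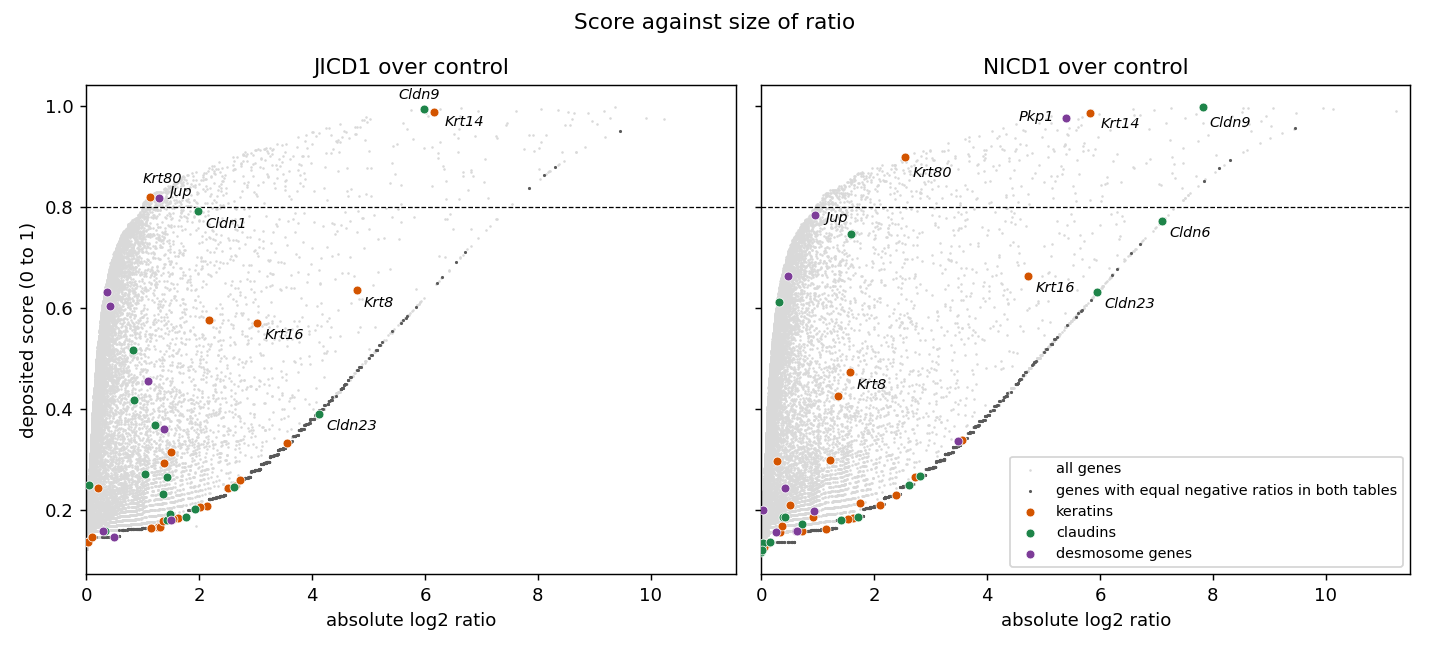
Deposited score (y axis, 0 to 1) against the absolute log2 ratio over control (x axis) for all genes (light grey), for the 694 genes with equal negative ratios (dark grey) and for the members by family (colours). The dashed line is a score of 0.8. Cldn9, Krt14, Krt80, Jup and, with NICD1, Pkp1 lie toward the upper edge, whereas many members lie on the lower edge that marks the floor.

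Upstream sequence is shown for 4 members that stand for the patterns described below. Cldn6 was at the floor with NICD1, Cldn1 was higher with both constructs, Krt5 was at the floor with JICD1 alone, and Dsp was higher with NICD1. Each line gives the 250 bases before the RefSeq start of the gene (build GRCm38.p6), 5′ to 3′ on the gene's strand. Capitals mark a match on either strand to the RBPJ core TGGGAA, RBPJ being the DNA-binding partner of NICD1, or to the Snail-type E-box CAGGTG. The windows also hold no AP-1 motif TGANTCA and no TATAAA, and no match overlaps another.
Cldn6 (chr17:23679115-23679364, plus strand): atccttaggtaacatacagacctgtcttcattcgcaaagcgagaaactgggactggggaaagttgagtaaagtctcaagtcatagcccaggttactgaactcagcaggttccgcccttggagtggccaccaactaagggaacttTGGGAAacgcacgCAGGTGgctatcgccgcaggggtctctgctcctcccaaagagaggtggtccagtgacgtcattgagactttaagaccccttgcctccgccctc
Cldn1 (chr16:26371840-26372089, minus strand): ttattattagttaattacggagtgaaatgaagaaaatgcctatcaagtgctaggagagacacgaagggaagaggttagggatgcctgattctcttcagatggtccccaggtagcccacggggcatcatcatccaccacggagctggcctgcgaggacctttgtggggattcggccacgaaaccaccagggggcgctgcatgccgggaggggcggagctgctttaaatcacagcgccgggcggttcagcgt
Krt5 (chr15:101712906-101713155, minus strand): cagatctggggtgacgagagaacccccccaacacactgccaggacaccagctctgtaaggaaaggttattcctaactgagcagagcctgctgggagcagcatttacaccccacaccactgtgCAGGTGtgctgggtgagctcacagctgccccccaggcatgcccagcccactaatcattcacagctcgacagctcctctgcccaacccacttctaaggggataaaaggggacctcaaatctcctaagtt
Dsp (chr13:38151044-38151293, plus strand): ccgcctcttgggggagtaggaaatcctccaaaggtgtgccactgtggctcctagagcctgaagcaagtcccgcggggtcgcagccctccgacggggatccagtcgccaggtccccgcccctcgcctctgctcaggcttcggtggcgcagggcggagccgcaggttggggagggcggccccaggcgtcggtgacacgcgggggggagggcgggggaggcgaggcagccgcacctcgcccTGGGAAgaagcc
The Cldn6 window held both motifs, Dsp the RBPJ core and Krt5 the E-box, while the Cldn1 window held neither. These letters are common: 21.6% of 32851 RefSeq windows of this length held TGGGAA, 17.2% CAGGTG, 6.75% TGANTCA and 12.4% TATAAA. Of the 37 members whose entries were searched, 27 had a start within 10 bases of a GENCODE start, with 30 windows in all. In any of their windows, 6 of the 27 held TGGGAA, 7 CAGGTG, 3 TGANTCA and 7 TATAAA. A match describes the sequence and does not show a binding site.

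Against control, the libraries labelled JICD1 had lower ratios for most of these genes, and each member that was scored was lower. Of the 48 members with a ratio, 4 were scored (8.33%), against 2.81% of all 18971 genes. Lower scored members numbered 4, where the background of lower calls was 1.74%, and higher scored members 0, where it was 1.07%. These 4 were the tight junction gene Cldn9, the basal keratin Krt14, Krt80 and Jup, the plakoglobin gene. Ratios below 0 were held by 29 of 48 members (60.4%), against 45.5% of all genes. Their median log2 ratio was -1.09, against 0.05 over all genes, and it was -0.42 over the 29 members without a group at the floor.

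With NICD1 the members went both ways around 0. Of 49 with a ratio, 4 were scored (8.16%), against 2.61% of all 19287 genes: Cldn9, Krt14 and Krt80 were lower, and Pkp1, a plakophilin of the desmosomal plaque, was higher. The background was 0.97% for lower and 1.64% for higher calls. Ratios below 0 were held by 25 of 49 members (51%), against 51.5% of all genes, and the median was -0.03, against -0.02. By family the NICD1 medians were -0.91 for keratins, 0.01 for claudins and 0.54 for desmosome genes. Without genes at the floor they were -0.28, 0.01 and 0.54. The floor rule removed no desmosome gene here, so the 0.54 comes from the same genes. Among them Dsc2 (0.61) and Dsg3 (0.63) lay on the floor edge but under the limit of 1. Dsp (3.49 with NICD1) was also kept, although its JICD1 ratio of 0.49 lay on that edge. In the libraries labelled JICD1 the family medians were -1.44, -0.59 and -0.06 in the same order. Without genes at the floor these JICD1 medians were -1.13, -0.85 and 0.30, so the JICD1 desmosome median had no stable sign.

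**Figure D2:**
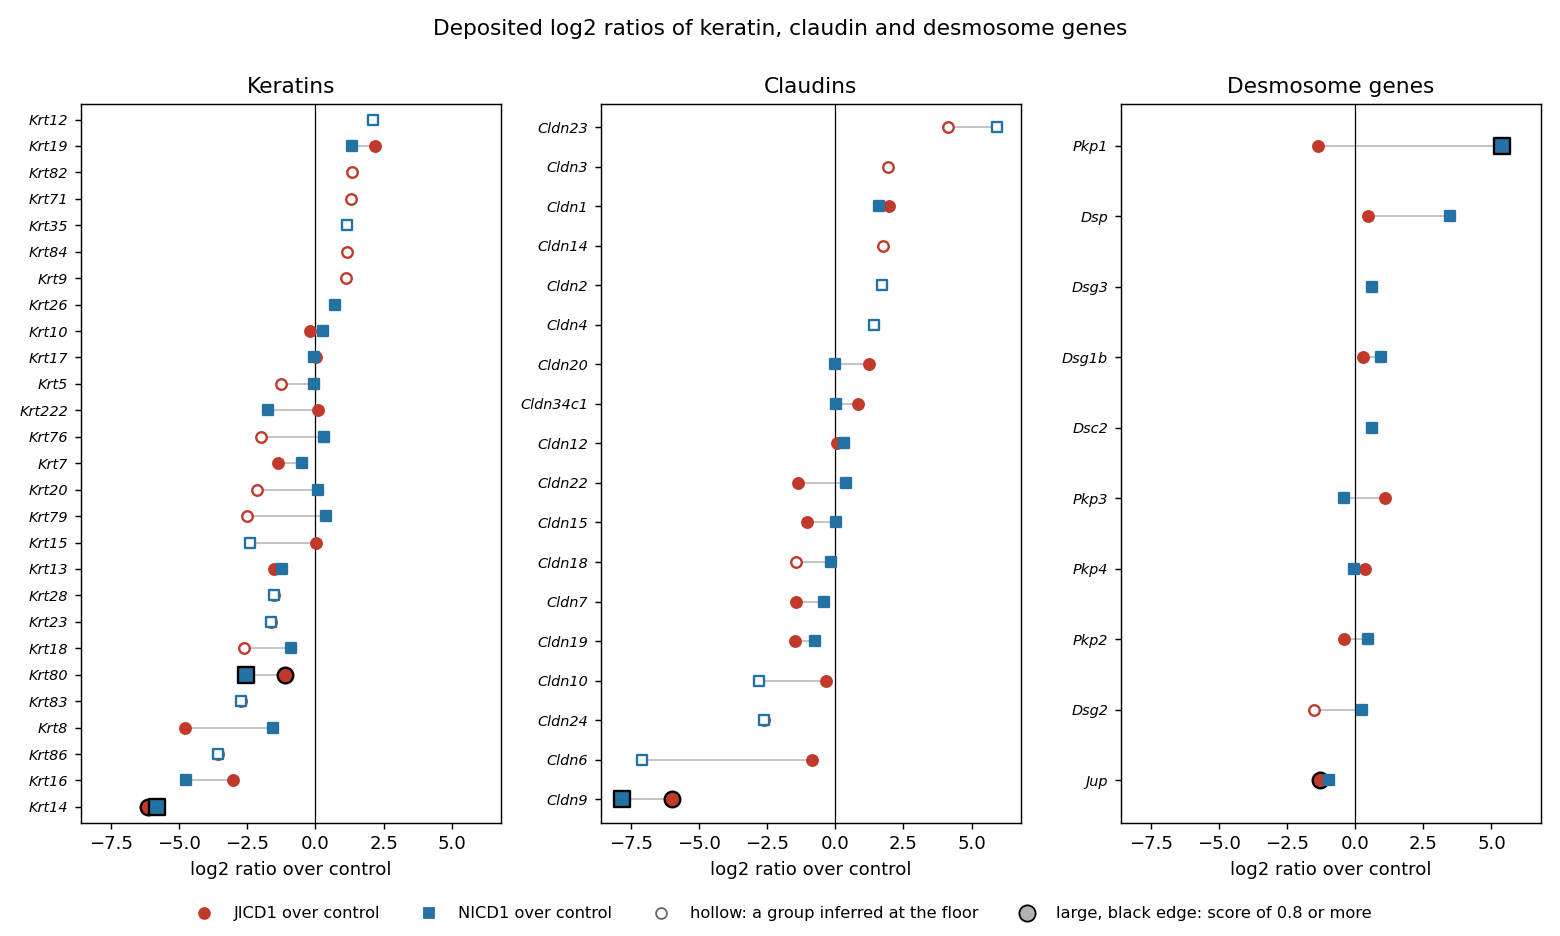
Deposited log2 ratio over control (x axis) of each member (y axis) by family, for JICD1 (red circles) and NICD1 (blue squares), joined by a line. Large black-edged symbols have a score of 0.8 or more, hollow symbols have a group inferred at the floor, and where only a blue symbol shows on an equal pair the red one lies beneath. Cldn9 and Krt14 lie farthest to the left in their families with large symbols in both comparisons, and Pkp1 lies at -1.37 with JICD1 and 5.39 with NICD1.

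Among the basal epithelial keratins, Krt14 was scored lower in both comparisons and its partner Krt5 in neither. In the authors' deposited tables Krt14 (gene identifier 16664) had a log2 ratio of -6.16 with JICD1, 71.4-fold lower at a score of 0.989, and of -5.82 with NICD1, 56.7-fold lower at 0.986. A gene at the floor with ratios of that size would score 0.642 and 0.614, so both transfected groups were taken to lie above it. Krt5, the type II partner of Krt14, had -1.26 with JICD1 and -0.05 with NICD1 in the authors' deposited tables. On the scale of log2 units above the floor, Krt5 stood at 1.26 in control, at 0 in the libraries labelled JICD1 and at 1.22 with NICD1, so its difference rested on a value near the limit.

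Krt16 and Krt17, keratins of activated and wounded skin that lie beside Krt14 on chromosome 11, were not scored, though Krt16 was also lower. Krt16 had ratios of -3.02 (8.13-fold, score 0.571) with JICD1 and -4.73 (26.5-fold, score 0.664) with NICD1 in the authors' deposited tables, lower in both but not scored. Krt17 had 0.02 and -0.06 in the authors' deposited tables, at scores of 0.136 and 0.128. Reads of these genes can be hard to separate: 14.4% of the 50-base windows of the Krt14 transcript were found in another gene's transcript, most of them in Krt16. For Krt16 the share was 37.6%, and the gene it shared most with was Gm11597 (25.2%). For Krt17 the share was 3.99%.

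Krt8 and Krt18, the first keratin pair of simple epithelia, had lower ratios with both constructs. Krt8 had -4.79 (27.7-fold lower, score 0.635) with JICD1 and -1.56 (2.95-fold lower, score 0.473) with NICD1 in the authors' deposited tables. Its partner Krt18 had -2.64 and -0.91 in the authors' deposited tables, and stood at 2.64 in control, 0 with JICD1 and 1.73 with NICD1 in log2 units above the floor. Neither gene was scored, and both lay lower with JICD1 than with NICD1. The Krt8 transcript shared 26.9% of its windows with the pseudogene Krt8-ps, and Krt18 shared 0.72%.

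Krt7, found in ductal epithelia, had -1.37 and -0.51 in the authors' deposited tables (JICD1, then NICD1), with scores of 0.293 and 0.211. Krt19, the small type I keratin of simple epithelia, went the other way from Krt8, at 2.17 (4.52-fold higher, score 0.577) and 1.36 (2.56-fold, score 0.425) in the authors' deposited tables. It had the highest JICD1 ratio of any keratin. Krt10, the keratin of differentiating epidermis, had -0.21 and 0.27 in the authors' deposited tables, at scores of 0.245 and 0.297, so its ratios lay near 0.

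Krt80, a type II keratin at the edge of its cluster on chromosome 15, was the keratin with a moderate but scored difference. In the authors' deposited tables Krt80 (gene identifier 74127) had -1.13 (2.19-fold lower, score 0.819) with JICD1 and -2.55 (5.86-fold lower, score 0.8996) with NICD1. Its score exceeded those of 294 and of 300 of the 300 genes nearest in absolute ratio. Its transcript shared no 50-base window with another gene. With a score limit of 0.9, Krt80 would be called in neither comparison.

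Most keratins, 16 of 27, had a group at the floor. The keratins Krt83 (whose identifier is now named Krt87) and Krt86 had the same ratios in both of the authors' deposited tables, -2.72 and -3.56. Control thus stood 2.72 and 3.56 log2 units above the floor while both transfected groups were at it, and Krt23 and Krt28 showed the same order from 1.63 and 1.53. Krt83 and Krt86 shared 36.9% and 43.3% of their windows with other genes. Krt5, Krt18, Krt20, Krt76 and Krt79 were at the floor with JICD1 alone, and Krt15 with NICD1 alone. The NICD1 ratio of Krt79 was 0.37 in the authors' deposited table.

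A few keratins had a ratio in 1 table alone. Krt82, Krt71, Krt84 and Krt9 had ratios between 1.14 and 1.36 in the authors' deposited JICD1 table and none for NICD1. Krt12 (2.10), Krt35 (1.14) and Krt26 (0.73) had a ratio only in the authors' deposited NICD1 table. Such genes mostly had the control at the floor: of 666 with a JICD1 ratio only and of 1 or more, 94.7% had the control on the floor curve, and of 965 for NICD1, 92.5%.

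**Figure D3:**
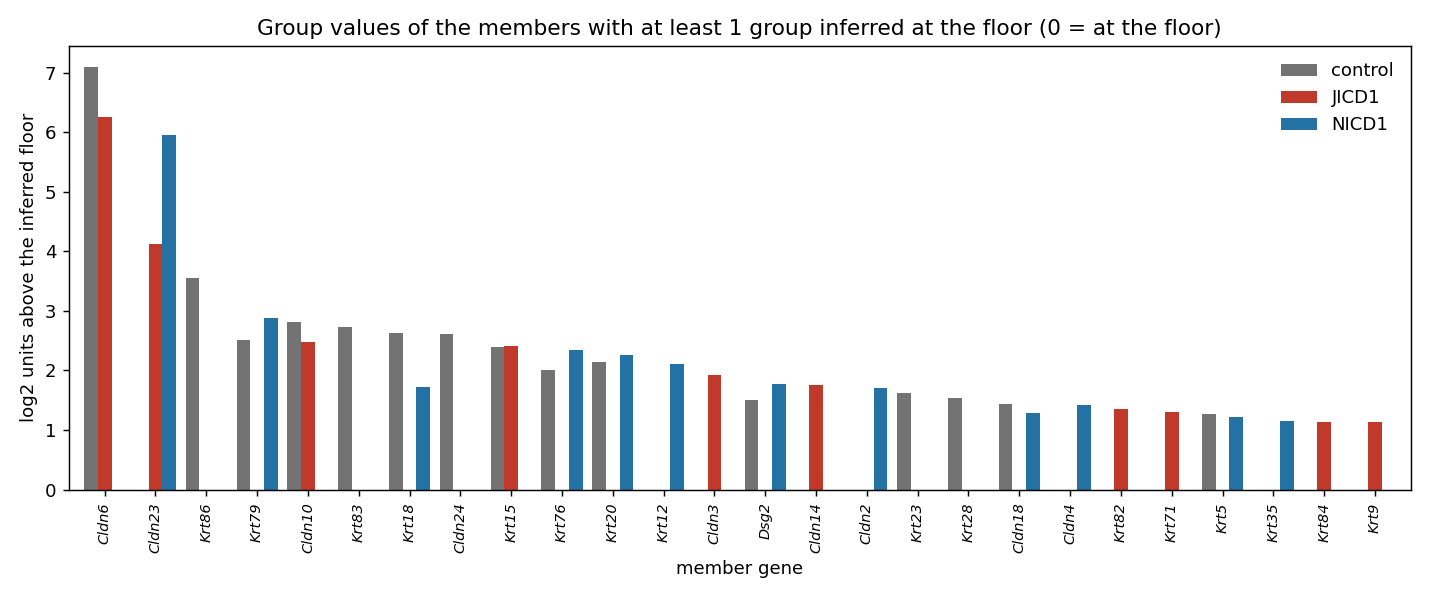
Bars give each group's value in log2 units above the inferred floor (y axis) for the 26 members (x axis) with at least 1 group at the floor, where 0 or no bar means at the floor. Grey is control, red the libraries labelled JICD1 and blue NICD1, each as the authors combined 3 libraries, with no replicate error. Cldn6 reached 7.10 in control and 6.25 with JICD1 but 0 with NICD1, and most other genes stayed below 3.

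Of the claudins, Cldn9 gave the clearest values. In the authors' deposited tables Cldn9 (gene identifier 56863), a tight junction claudin of the inner ear and other epithelia, had -5.98 (63.3-fold lower, score 0.994) with JICD1 and -7.82 (225-fold lower, score 0.998) with NICD1. At these ratios a gene at the floor would score 0.620 and 0.850, so all groups were inferred to lie above it. Its transcript shared no 50-base window with another gene, Cldn6 included.

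Cldn6, an embryonic claudin that is the next gene on chromosome 17, separated the constructs. It had -0.85 (1.80-fold lower, score 0.417) with JICD1 and -7.10 (score 0.773) with NICD1 in the authors' deposited tables. In log2 units above the floor Cldn6 stood at 7.10 in control, 6.25 in the libraries labelled JICD1 and 0 with NICD1. The 15 other genes with a ratio around this pair, from Zfp213 to Prss32, had JICD1 ratios from -1.49 to 1.59, and the 14 with an NICD1 ratio ranged from -2.31 to 3.05 in the authors' deposited tables. Both claudins thus lay below every other gene of the stretch with NICD1, and Cldn9 alone did so with JICD1.

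**Figure D4:**
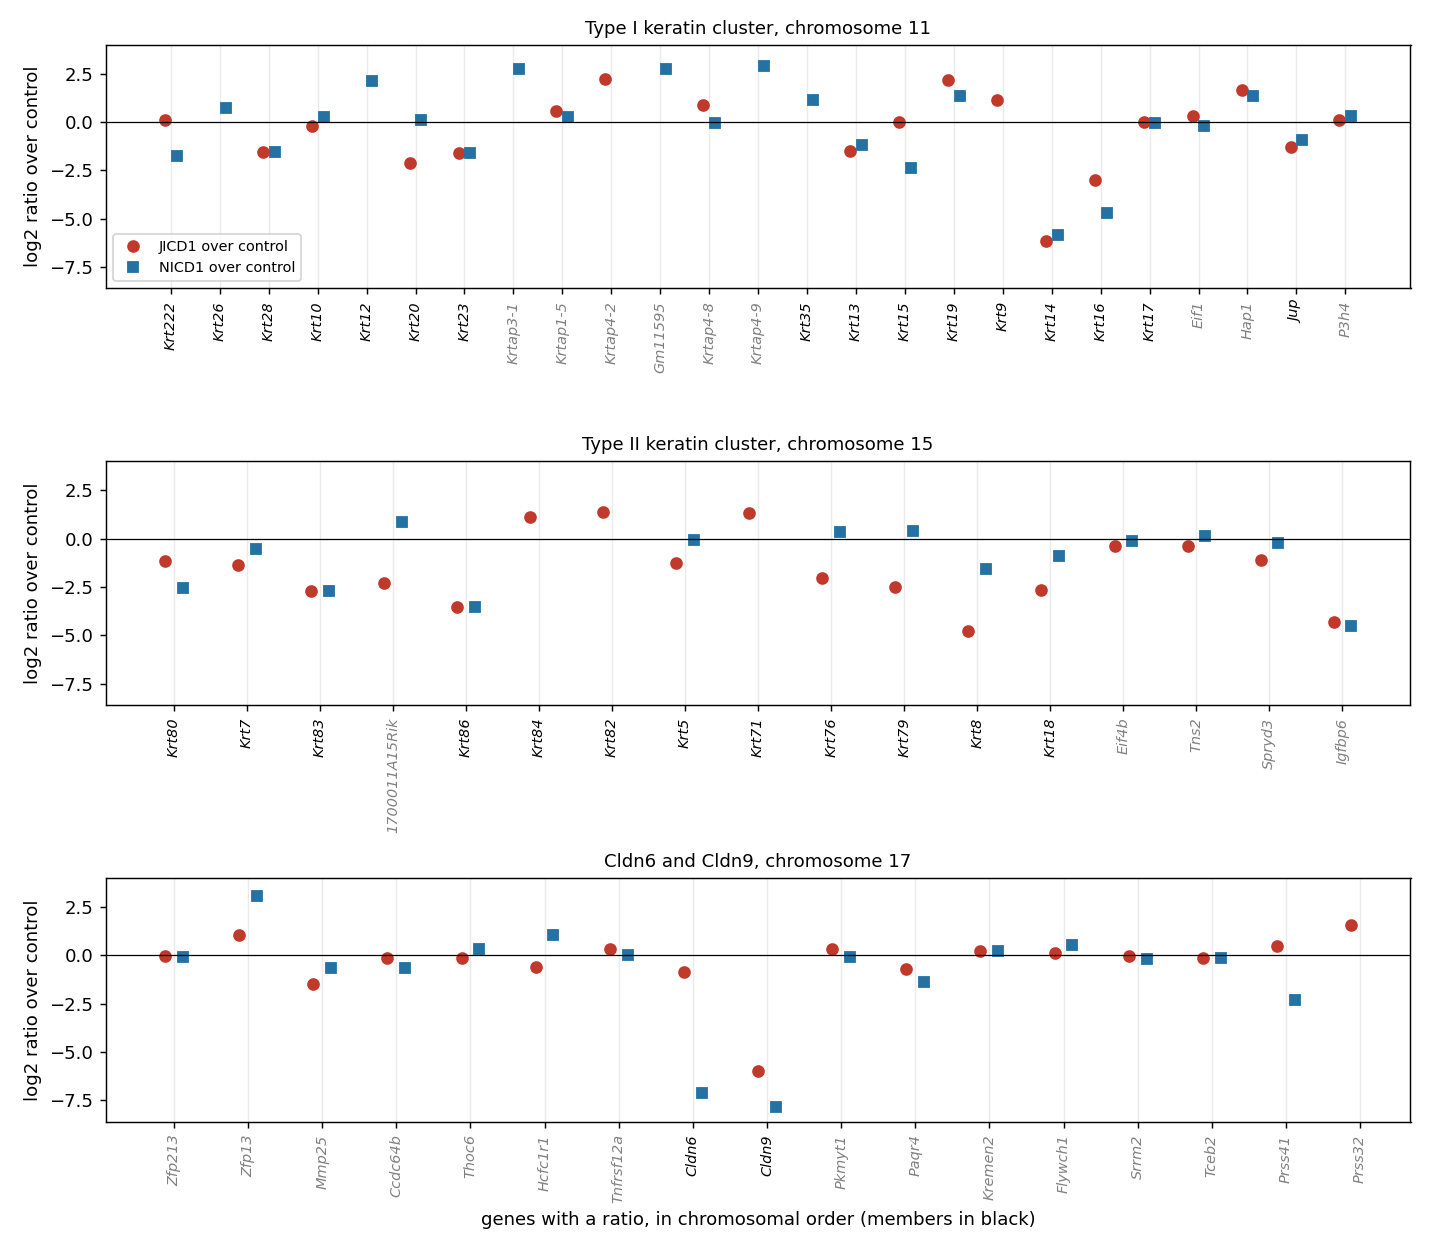
Deposited log2 ratios over control (y axis) of genes with a ratio, in chromosomal order (x axis), for JICD1 (red circles) and NICD1 (blue squares) over 3 stretches: the type I keratins, the type II keratins with Krt18, and Cldn6 with Cldn9. Members are named in black and other genes in grey. Krt14 and Krt16 lie low between Krt9 and Krt17, and Cldn9 lies low in both comparisons beside Cldn6, which is low with NICD1.

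Cldn1, a barrier-forming claudin of skin and many epithelia, had ratios of more than 1 above 0 in both comparisons with no group at the floor. Cldn1 had 1.98 (3.95-fold higher, score 0.792) with JICD1 and 1.59 (3.00-fold, score 0.747) with NICD1 in the authors' deposited tables. It thus lay just under the score of 0.8, and with a limit of 0.7 it would be called in both. Cldn23 had larger ratios, 4.12 and 5.95 in the authors' deposited tables, from a control inferred at the floor. Cldn12, a claudin expressed in many tissues, had 0.05 and 0.31 in the authors' deposited tables.

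The classic epithelial claudins were not scored. Cldn3 (1.92) and Cldn14 (1.76) had a ratio only in the authors' deposited JICD1 table, and Cldn2 (1.71) and Cldn4 (1.42) only in the NICD1 table. Cldn7 had -1.43 and -0.43 in the authors' deposited tables, at scores of 0.267 and 0.187. Cldn10, a claudin of kidney tubules, had -0.33 with JICD1 and -2.81 with NICD1 in the authors' deposited tables, where NICD1 was inferred at the floor.

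Cldn24 had -2.61 in both of the authors' deposited tables, with both transfected groups at the floor, but 68.9% of its windows were shared with Cldn22, so these genes cannot be separated with confidence. Cldn22 itself had -1.36 and 0.38 in the authors' deposited tables. Cldn18 (-1.44 and -0.15), Cldn19 (-1.48 and -0.73) and Cldn20 (1.22 and 0.003) also had small scores, none above 0.368, in the authors' deposited tables. No claudin apart from Cldn9 was scored in either comparison.

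Of the desmosomal plaque genes, Jup was lower with both constructs and Pkp1 differed between them. Jup (ENSMUSG00000001552), whose product links desmosomal cadherins to the plaque and also joins adherens junctions, had -1.28 (2.43-fold lower, score 0.818) with JICD1 in the authors' deposited table. With NICD1 it had -0.95 (1.93-fold lower, score 0.784) in the authors' deposited table, just under the limit. Whether these 2 Jup ratios differ was not tested.

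Pkp1 (gene identifier 18772) had -1.37 (2.59-fold lower, score 0.361) with JICD1 and 5.39 (42.0-fold higher, score 0.977) with NICD1 in the authors' deposited tables. A gene at the floor with that NICD1 ratio would score 0.563, so the control was taken to lie above it. The difference of -6.77 on the log2 scale between the libraries labelled JICD1 and NICD1 was the largest in size among the members. Neither Jup nor Pkp1 shared a 50-base window with another gene.

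The other plakophilins had ratios smaller in size than those of Pkp1 in both comparisons. Pkp2, the plakophilin of heart and simple epithelia, had -0.42 (score 0.605) and 0.47 (score 0.664) in the authors' deposited tables. Pkp3 had 1.09 (score 0.456) and -0.42 (score 0.243), in the order JICD1 and NICD1, in the authors' deposited tables. Pkp4, whose product is found mainly at other junctions, had 0.37 (score 0.632) and -0.03 (score 0.201) in the authors' deposited tables. These 3 genes went in different directions and none was scored.

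The plakin gene Dsp, which ties keratin filaments to the desmosome, had 0.49 (score 0.148) with JICD1 and 3.49 (score 0.337) with NICD1 in the authors' deposited tables. The floor curve at that NICD1 ratio gives 0.328, so Dsp lay only slightly above it and no fold is given. None of the desmosomal cadherins was scored. Dsg2 had -1.50 with JICD1, at the floor, and 0.27 with NICD1 in the authors' deposited tables. Dsc2 (0.61) and Dsg3 (0.63) had a ratio only in the authors' deposited NICD1 table, and Dsg1b, which shared 49% of its windows with other genes, had 0.30 and 0.94.

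Setting the libraries labelled JICD1 against NICD1 by the difference of the deposited log2 ratios left 42 members. Of these 14 were lower by 1 or more with JICD1, against 13.6% of all 18182 genes, and 9 were higher by 1 or more, against 10.6%. The median difference was -0.31, against 0.04 over all genes. Without genes at the floor, 12 members in place of 23 passed a difference of 1 in either direction, as many lower as higher. Lower with JICD1 were Pkp1, Krt8, Dsp, Cldn22, Cldn15 and Cldn7. Krt222, Cldn9, Krt16, Pkp3, Krt80 and Cldn20 were higher. The share over all genes without those at the floor was not computed. Besides Pkp1, the authors' deposited tables gave -3.23 for Krt8, -3.00 for Dsp and -2.88 for Krt79, where JICD1 was inferred at the floor. Higher with JICD1 by the same difference of the authors' deposited tables were Cldn6 at 6.25, Cldn10 at 2.48 and Krt15 at 2.40. In each of these NICD1 was inferred at the floor. Krt222 at 1.85 and Cldn9 at 1.83 in the authors' deposited tables had no group inferred at it.

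Other genes of the same structures were mostly unscored, with a few single genes standing out. Among 28 tight junction partners, 3 of 26 with a JICD1 ratio were scored higher and 0 lower, with a median of 0.46. The shares over all genes were 1.07% higher and 1.74% lower. With NICD1 1 of 27 was scored higher and 0 lower, against 1.64% and 0.97% of all genes, with a median of 0.36. F11r, the gene of the junctional adhesion molecule JAM-A, had 3.13 (8.77-fold, score 0.850) and 3.06 (8.35-fold, score 0.853) in the authors' deposited tables. Cxadr, an adhesion receptor of tight junctions, had 2.34 (score 0.875) with JICD1 and 0.12 (score 0.263) with NICD1 in the authors' deposited tables. Ildr2, of the angulin family, had 8.60 (score 0.975) and 4.48 (score 0.619) in the authors' deposited tables. Tjp1, the gene of the scaffold ZO-1, stayed at -0.20 and -0.15 in the authors' deposited tables.

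Of the plakin and cornified envelope genes, 2 of 10 were scored lower with JICD1 and 0 higher, against 1.74% and 1.07% of all genes. With NICD1, 1 of 11 was scored lower and 1 higher, against 0.97% and 1.64% of all genes. Perp, a membrane protein needed for desmosome assembly, had -1.22 (2.33-fold lower, score 0.825) and -4.28 (19.4-fold lower, score 0.958) in the authors' deposited tables. Plec, the gene of the cytolinker plectin, had -1.38 (score 0.837) with JICD1 and -0.70 (score 0.762) with NICD1 in the authors' deposited tables. Cdsn, which encodes the glue of corneodesmosomes, had 0.77 (score 0.417) and 3.29 (9.79-fold higher, score 0.888) in the authors' deposited tables.

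Among epithelial regulators 0 of 14 were scored with JICD1 and 0 of 18 with NICD1, where the shares over all genes, 2.81% and 2.61%, leave little room for a call in lists of this size. Their medians were -0.18 and 0.63. The other intermediate filament genes also had 0 scored of 13 in each comparison, with medians of -0.16 and -0.16. Vimentin (Vim) stood at -0.16 and -0.02 in the authors' deposited tables, close to control in both. In the adherens junction list Ctnnd2 was scored higher in both, at 9.92 and 8.05 in the authors' deposited tables, and Vcl, the vinculin gene, was scored lower with JICD1 at -1.17 (score 0.823). The remaining members of that list were not scored, out of 9 measured in each comparison. Over all genes 1.07% were scored higher and 1.74% lower with JICD1, and 1.64% higher with NICD1.

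**Figure D5:**
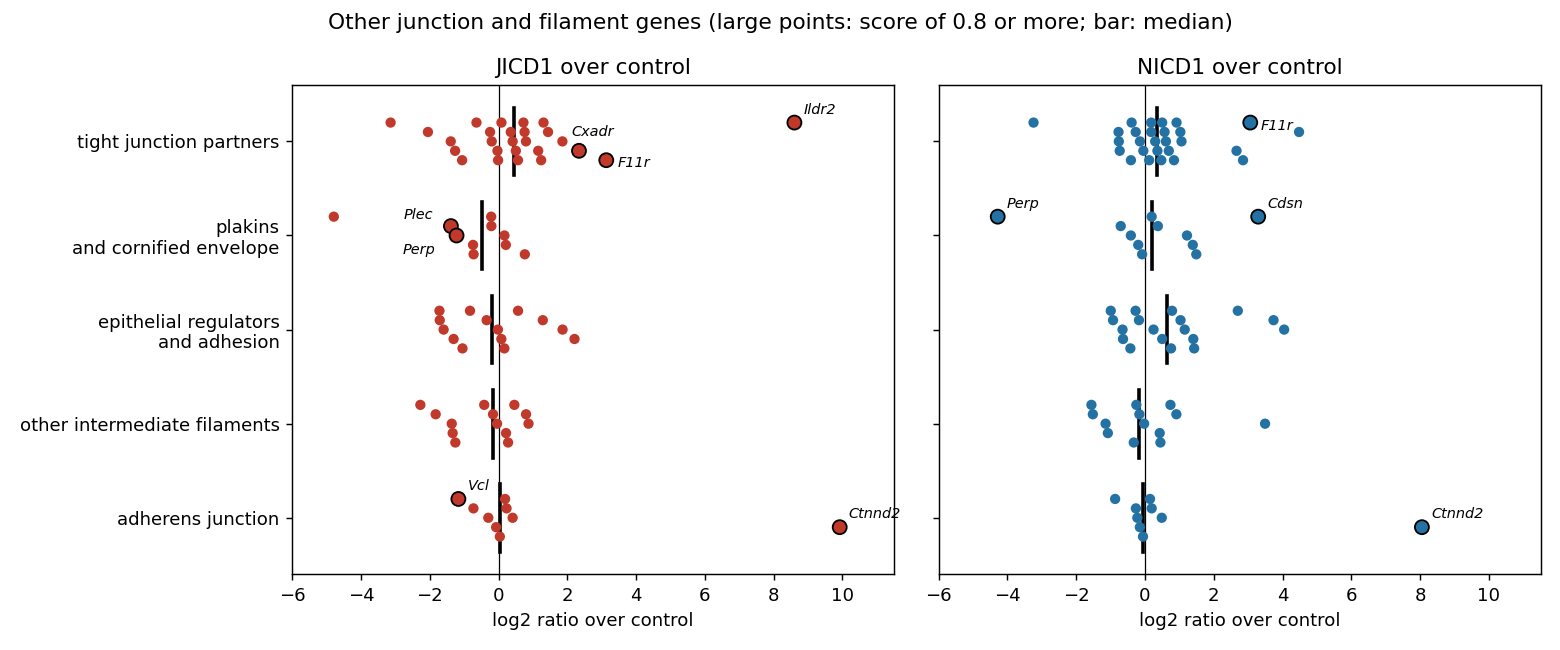
Deposited log2 ratios over control (x axis) of other junction and filament genes by list (y axis), for JICD1 (left, red) and NICD1 (right, blue). Each point is a gene, large black-edged points have a score of 0.8 or more, and black bars are list medians. The medians lie between -0.47 and 0.63, and the scored genes lie singly away from them.

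Markers of epithelial cells that normally make these proteins are given by their range, since a count of 0 scored says little in lists this short beside 2.81% and 2.61% of all genes. Of 6 keratinocyte markers, 4 had a JICD1 ratio (-1.31 to 1.45) and 5 an NICD1 ratio (-0.27 to 1.39), with 0 scored. Of 6 simple epithelial markers, 3 had a JICD1 ratio (-1.72 to -0.83) and 6 an NICD1 ratio (-0.64 to 2.70), with 0 scored. The JICD1 group was inferred at the floor for the defining genes Trp63 and Cdh1, and Epcam had no JICD1 ratio. Mesothelial and meningeal markers ranged from -1.69 to 1.94 with JICD1 and from -1.72 to 3.17 with NICD1, with 0 scored of 4 and 5.

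Fibroblast and pericyte markers were lower alongside Krt14 and Cldn9 in the libraries labelled JICD1. All 4 of them with a JICD1 ratio, of 6 listed, were scored lower, against 1.74% of all genes. These 4 ranged from -8.67 to -2.17 in the authors' deposited table. With NICD1 2 of 5 were scored lower, against 0.97% of all genes, over a range from -5.08 to 1.66. Endothelial markers had 0 scored of 5 in each comparison, oligodendrocyte markers 0 of 3, and astrocyte markers 1 of 7 scored lower with JICD1 and 2 of 7 with NICD1. The part of any of these in the keratin and claudin ratios was not tested.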

How the data were processed

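RNA-seq of 9 libraries, 3 in each of 3 groups as the titles give them, was available as 2 comparison tables. Per the submitters' processing notes, the tools were Bowtie2 and BWA and the build was mm9, without versions or roles. Not given in the sources used here are the read counting, the scaling and the way in which 3 libraries became 1 ratio. Both deposited tables hold a log2 ratio of each construct over control, per the file headers, and a score between 0 and 1 headed Probability, per the file headers, whose method is not stated. There were 0 unused numeric columns. Depth per sample is unknown, so no interval or test was possible.

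The members and gene lists were chosen with earlier results of these data known, so their ratios are a description. Genes were named from the tables or, where the symbol was missing, through their identifier in the GRCm38 annotation (NCBI, GENCODE vM21). That build is not mm9 and served for names, gene order, transcript and upstream sequence only. All genes were read with pandas 2.3.3 in Python 3.11.15. A group was inferred at the floor from the running median score of genes with equal negative ratios. The gene's score had to lie within 0.002 of it (0.01 above a log2 of 6), up to a log2 of 9.45. This step was tested on simulated data whose score was built from ranks of the ratio and the difference. Because the method of the deposited score is not stated, that test cannot show how often the floor calls are right here. Transcripts of the 55 members were split into 50-base windows and looked up on the same strand in all other genes. Genes named in the text were mainly the scored members, the 5 largest ratios in each direction per family and table, a fixed set of well-known members and up to 4 scored genes per list. Some genes outside these rules were also named by choice, among them Krt17, Tjp1, Vim, Gfap, Trp63, Cdh1 and Epcam. Alternatives were score limits, gene naming, genes in both tables, the floor, centring on the table median, and leaving out Pkp4. Others were added after the data were seen.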

Additional observations from a re-analysis of the deposited data

How the results depend on the processing

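Of 54 recomputed counts and medians, 40 kept their value within the limits set (1.5 times for a count, 0.1 for a median), 11 moved and 3 changed sign. With a score limit of 0.7, 7 members were called with NICD1, and with 0.9, 2 were called with JICD1; Krt80 in both comparisons and Jup with JICD1 then fell under the limit, whereas Cldn9, Krt14 and Pkp1 were called under every setting that kept them. Naming genes by the tables' symbols alone removes Jup and Pkp1, left 15 members past a difference of 1 between constructs and gave a median difference of -0.17. The share over all genes under that naming was not computed. Over genes in both tables the medians were -1.32 for JICD1 and -0.29 for NICD1. Without genes at the floor they were -0.42 and 0.0072, the latter reversed in sign, with 12 members past a difference of 1. A wider floor tolerance, added after the data were seen, gave -0.42, 0.0072 and 12. Leaving out members that share over 10% of their windows, also added, gave -0.42 and 0.017. The NICD1 median thus has no stable sign. No paired analysis was possible because the tables hold no value per library, and for the same reason no replicate could be left out.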

Other observations

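Genes with the most similar pair of ratios were looked for by the summed absolute distance in the 2 comparisons. Only genes with both ratios and a symbol of an initial capital followed by lower-case letters and digits were searched. Unnamed genes and clone-type names were left out. For Cldn9 the nearest was Lbx1, at a distance of 1.45 on the log2 scale, with -5.27 and -7.08 in the authors' deposited tables. None of the genes searched thus lay close to Cldn9. For Pkp1 the nearest were Havcr2 at 0.29 and Gpr25 at 0.43, the latter with -1.38 and 4.97 in the authors' deposited tables. For Krt14 the nearest was Edar at 0.45, with -6.22 in both of the authors' deposited tables, where both transfected groups lay at the floor. For Jup the nearest was Tmem88 at 0.11, and for Krt80 it was Stox2 at 0.072.

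Igfbp6, singled out after its value was seen and lying near Krt8 and Krt18 on chromosome 15, had -4.30 and -4.51 in the authors' deposited tables. The gene 1700011A15Rik, whose identifier is now named Krt88 and which the naming rule leaves out, had -2.28 with JICD1 and 0.86 with NICD1 in the authors' deposited tables.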
